A study of Homo sapiens with 9 samples.

Results

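The annexins described here are a chosen list of 10 genes of the family, ANXA1, ANXA2, ANXA3, ANXA4, ANXA5, ANXA6, ANXA7, ANXA10, ANXA11 and ANXA13, out of 19775 genes with a probe set of their own on the array. Every probe set that names 1 of these genes was taken, which gave 19 of the 54675 probe sets in the file. ANXA13 was chosen by its lower signal in the 5-Aza groups of these same arrays, so its values are given as a description and without a test. The other 9 were taken as family members, in a list chosen with earlier results of these data known. The 9 samples were cultures of HT-29, an established human colon cancer cell line, with 3 biological replicates in each of 3 groups. One group received the vehicle dimethyl sulfoxide alone (0 µM), another 5 µM and another 10 µM of 5-aza-deoxycytidine (5-Aza), and per the study's methods all were kept for the same number of days. 5-Aza is a deoxycytidine analog that is built into DNA, where it traps the DNA methyltransferases and lowers DNA methylation. RNA of each culture was hybridized to 1 Affymetrix U133 Plus array. All groups come from 1 cell line.

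Annexins bind negatively charged phospholipids in the presence of calcium through a conserved core of repeats, while their short and variable N-termini bind partner proteins such as the small calcium sensors of the S100 family. They tie membranes to the actin cytoskeleton, take part in vesicle traffic and secretion, and help to reseal damaged membranes. In the gut, ANXA13 is known as an intestinal annexin of the epithelium and ANXA10 as an annexin of gastric epithelium, while ANXA1, ANXA2, ANXA4 and ANXA5 are found in many epithelia.

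Values are log2 signals of 1 array per culture, so a difference of 1 is a 2-fold change, and signals of different probe sets are not compared with each other. The floor was each array's median over all its probe sets. A gene was tested when at least 1 group had all 3 of its arrays at or above it, and 11756 genes were. A gene passed the test at a limma adjusted p of at most 0.05 over all tested genes, and was called when it also changed more than 2-fold. Of the 10 annexins, 9 met this condition with 16 of their 19 probe sets, and 8 of them with 15 probe sets were tested, since ANXA13 is given as a description. ANXA6, which has a doubled annexin core, did not meet it: its 2 probe sets reached the floor on 0 and on 1 of the 9 arrays, and neither is read as a difference. Probe set 244250_at had signals of 4.06 to 4.91 at 0 µM, 2.93 to 4.98 at 5 µM and 2.49 to 4.47 at 10 µM. Probe set 200982_s_at had 1.00 to 3.43, 3.96 to 5.56 and 0.77 to 4.22 at the same doses, with the 5 µM cultures above the 0 µM cultures. The other probe set below this condition, 1568126_at of ANXA2, reached the floor on 1 array.

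The cultures carried the markers of a colon epithelial line. Of 11 such markers, 9 lay above the floor on every array, among them EPCAM, KRT8 and VIL1, while CDX1 and CDX2 lay below it on all 9. The summed linear signal of the 11, which follows the brightest of them, was lower after treatment, at 96359 to 99807 at 0 µM, 65703 to 73736 at 5 µM and 60905 to 69102 at 10 µM. The markers did not all fall. Of 9 tested at 5 µM against 0 µM, 5 passed as lower (13.3% of all tested genes). There 1 passed as higher (20.2% of all tested genes), CDH17 at 0.75 ± 0.19 (adjusted p = 0.0170). At 10 µM against 0 µM 5 passed as lower (13.3%) and 0 as higher (19.8%). The summed signal of 7 fibroblast markers was 291 to 393 at 0 µM, 1048 to 1098 at 5 µM and 635 to 764 at 10 µM, with COL3A1, THY1 and PDGFRB below the floor on every array. The collagen gene COL1A1 and the proteoglycan gene LUM lay above it on all 9, and rose by 2.68 ± 0.26 (adjusted p = 0.000140) and 1.57 ± 0.16 (adjusted p = 0.000165) at 5 µM against 0 µM. These 2 were the only fibroblast markers tested, and the rise of the sum lies mainly with them. COL1A2 and DCN reached the floor on 1 array each, were not tested and had lower means at 5 µM than at 0 µM. Of the other markers, PTPRC and CD3D of blood cells and VWF and CDH5 of endothelium were below the floor on all 9 arrays, while CD14 of blood cells and PECAM1 of endothelium were above it on all 9 and HBB on 5. None of these passed the test in any comparison. The actin control probe sets gave a log2 difference of 3′ over 5′ signal, a measure that is larger for shorter RNA or labelled copies, of 2.09 ± 0.19 at 0 µM, 2.59 ± 0.10 at 5 µM and 2.98 ± 0.17 at 10 µM (SD, n = 3 each, exact permutation test across the 3 groups, p = 0.00357). It thus moved with dose, and its values did not overlap between the groups. The part of these shifts in the annexin values was not tested. Fits with the actin value as a covariate, given further on, cannot tell it apart from dose. In total RNA of a culture, fewer cells of a kind and less RNA per cell cannot be told apart.

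The DNA before the start sites is shown for 3 annexins that differ most in CG dinucleotides, the sites that DNA methyltransferases modify. RefSeq start sites (GRCh38.p14) gave 13 windows for 9 of the 10 genes, and none for ANXA13. Each window printed holds the 250 bases before the start, 5′ to 3′ on the gene's own strand, with each CG in capitals. The windows are chr4:168092287-168092536 for ANXA10, chr9:73151615-73151864 for ANXA1 and chr2:69643558-69643807 for the first of 2 starts of ANXA4, all on the plus strand.
ANXA10: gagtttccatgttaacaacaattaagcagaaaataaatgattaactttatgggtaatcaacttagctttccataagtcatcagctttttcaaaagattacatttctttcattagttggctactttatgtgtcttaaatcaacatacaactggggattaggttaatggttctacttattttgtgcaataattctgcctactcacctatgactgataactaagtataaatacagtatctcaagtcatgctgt
ANXA1: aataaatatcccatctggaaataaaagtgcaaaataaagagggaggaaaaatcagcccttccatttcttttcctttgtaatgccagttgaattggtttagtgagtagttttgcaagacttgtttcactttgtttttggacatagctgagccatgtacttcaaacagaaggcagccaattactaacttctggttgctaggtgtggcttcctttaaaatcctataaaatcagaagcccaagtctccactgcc
ANXA4: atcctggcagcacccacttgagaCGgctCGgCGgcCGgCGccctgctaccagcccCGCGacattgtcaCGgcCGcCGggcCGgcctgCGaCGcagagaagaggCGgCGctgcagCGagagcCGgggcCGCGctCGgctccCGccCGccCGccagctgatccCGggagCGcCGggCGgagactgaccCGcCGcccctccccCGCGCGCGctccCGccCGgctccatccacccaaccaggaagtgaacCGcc
The windows of ANXA10 and ANXA1 hold 0 CG, as do 6.06% of all 35116 promoter windows of this length in the table. That of ANXA4 holds 36, a number that 4.85% of the windows reach. The other windows hold 28 CG for ANXA2, 18 for ANXA3, 21 at the second start of ANXA4, 31 for ANXA5, 10 and 19 for ANXA6, 20 for ANXA7, and 22, 9 and 5 for ANXA11, against a median of 11 over all windows. A CG reads the same on both strands, and 93.9% of all windows hold at least 1. These counts describe the reference sequence. No methylation was measured here.

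ANXA13 had the largest difference of the family. Its signals were 12.15, 12.12 and 11.85 at 0 µM, 9.69, 9.45 and 9.59 at 5 µM, and 9.51, 10.30 and 9.87 at 10 µM. Both treated groups lay below every vehicle culture, while the 5 and 10 µM groups overlapped. The means were 12.04 ± 0.16 at 0 µM, 9.58 ± 0.12 at 5 µM and 9.89 ± 0.40 at 10 µM (SD, n = 3 each). This is a log2 difference of -2.47 or 5.53-fold lower at 5 µM against 0 µM and of -2.15 or 4.44-fold lower at 10 µM against 0 µM. The lower dose thus had the lower mean, by 0.32 on the log2 scale, a difference within the spread of the 10 µM cultures. Replicate 2 at 10 µM was the highest of its group, and without it the difference between 10 and 5 µM was 0.11. ANXA13 has a single probe set, 208323_s_at, and lies on chromosome 8 at 123680794 to 123737393 (GRCh38.p14).

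**Figure D1:**
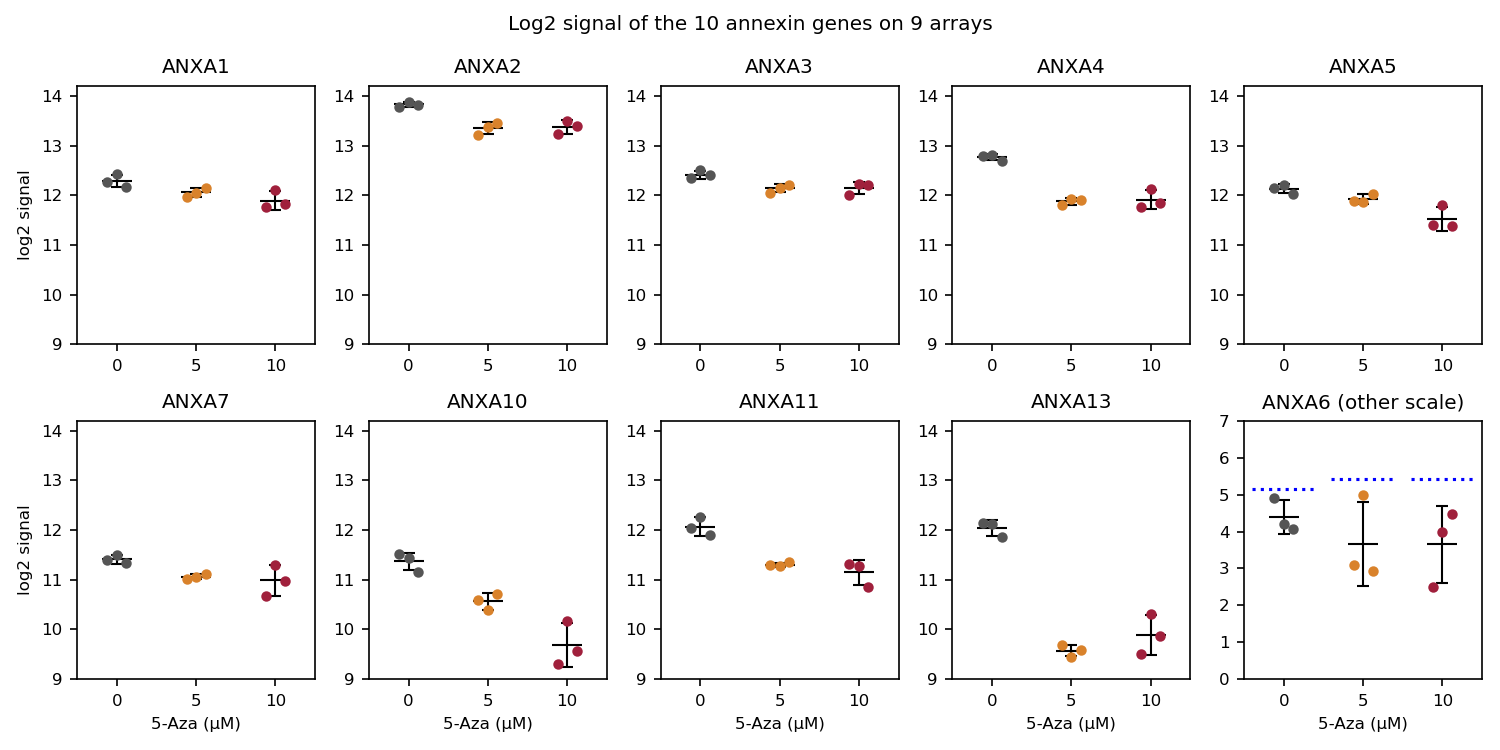
Log2 signals (vertical axis) of the annexin genes, 1 panel per gene, by 5-Aza dose in µM (horizontal axis). Points are single cultures, bars are means ± SD of 3 cultures, and the dotted line in the panel of ANXA6, drawn on another scale, is the mean floor of a group's arrays. ANXA13 sits between 11.85 and 12.15 at 0 µM and between 9.45 and 10.30 in all 6 treated cultures, and ANXA10 is lower at each higher dose.

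ANXA10 (210143_at) was lower at each higher dose. The signals were 11.51, 11.43 and 11.17 at 0 µM, 10.60, 10.39 and 10.72 at 5 µM, and 9.30, 10.18 and 9.58 at 10 µM. No 2 groups overlapped. ANXA10 fell by 0.80 ± 0.21 (SE) at 5 µM against 0 µM (adjusted p = 0.0206), by 0.89 ± 0.21 at 10 µM against 5 µM (adjusted p = 0.0280) and by 1.68 ± 0.21 at 10 µM against 0 µM (adjusted p = 0.000941). The last is 3.21-fold and the only call among the 8 tested annexins other than ANXA13, where 1.5% of all tested genes were called lower and 7.58% in either direction. At 5 µM against 0 µM 0 of the 8 were called, where 9.92% of all tested genes were called and 1.32% as lower. At 10 µM against 5 µM it was also 0 of 8, where 2.35% were called and 2.08% as lower. The 10 µM against 0 µM difference passed the test without any single array. The smaller steps were less secure: the step to 5 µM missed the threshold without 1 of 4 arrays (0 µM replicates 1 and 2, 5 µM replicates 1 and 2, adjusted p = 0.0579 to 0.0731). The step between 5 and 10 µM missed it without 10 µM replicate 1 or 3 or without any 1 of the 5 µM arrays (adjusted p = 0.0520 to 0.104), while without 10 µM replicate 2 it was -1.13 and was called. ANXA10 lies on chromosome 4 at 168092537 to 168187736 (GRCh38.p14).

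ANXA4, ANXA11 and ANXA2 were lower in both treated groups by similar amounts at the 2 doses. ANXA4, a protein of the membranes of secretory epithelia, had signals of 12.80, 12.82 and 12.70 at 0 µM, 11.80, 11.93 and 11.90 at 5 µM, and 11.76, 12.13 and 11.84 at 10 µM (201301_s_at). All treated cultures lay below all vehicle cultures. It fell by 0.89 ± 0.11 at 5 µM against 0 µM (adjusted p = 0.000625) and by 0.86 ± 0.11 at 10 µM against 0 µM (adjusted p = 0.00110), just under 2-fold. The difference between the 10 and 5 µM groups was 0.03, with a 95% interval of -0.23 to 0.29. Its other probe set, 201302_at, was lower by the same measure at both doses, with differences of -0.93 against 0 µM (limma over probe sets, adjusted p = 0.00170 at 5 µM and 0.00252 at 10 µM).

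ANXA11, a partner of S100A6 that also binds RNA granules and lysosomes, had signals of 12.04, 12.27 and 11.89 at 0 µM, 11.30, 11.27 and 11.35 at 5 µM, and 11.31, 11.27 and 10.86 at 10 µM. The groups at 5 and 10 µM overlapped with each other and not with the vehicle cultures. ANXA11 fell by 0.76 ± 0.15 at 5 µM against 0 µM (adjusted p = 0.00480) and by 0.92 ± 0.15 at 10 µM against 0 µM (adjusted p = 0.00258). Between 10 and 5 µM the difference was -0.16, with a 95% interval of -0.49 to 0.17. All 3 of its probe sets passed the test in both comparisons, with differences of -0.54 and -0.67 for the others at 5 µM and of -0.51 and -0.75 at 10 µM.

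ANXA2 forms a complex with S100A10 that binds plasminogen and its activator at the cell surface. Its signals were 13.79, 13.89 and 13.81 at 0 µM, 13.21, 13.38 and 13.46 at 5 µM, and 13.23, 13.50 and 13.39 at 10 µM (210427_x_at), with both treated groups below the vehicle cultures. It fell by 0.48 ± 0.11 at 5 µM against 0 µM (adjusted p = 0.00992) and by 0.46 ± 0.11 at 10 µM against 0 µM (adjusted p = 0.0132). Between 10 and 5 µM the difference was 0.02, with a 95% interval of -0.22 to 0.27. The 3 probe sets that passed the floor gave nearly the same values, but all are of the _x_at class, whose probes match several transcripts, so signal of the near-identical pseudogenes ANXA2P1, ANXA2P2 and ANXA2P3 cannot be told apart from that of ANXA2. Whether ANXA2 passed the test also depended on scaling: after quantile normalization the differences were -0.12 (adjusted p = 0.299) and -0.09 (adjusted p = 0.426).

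**Figure D2:**
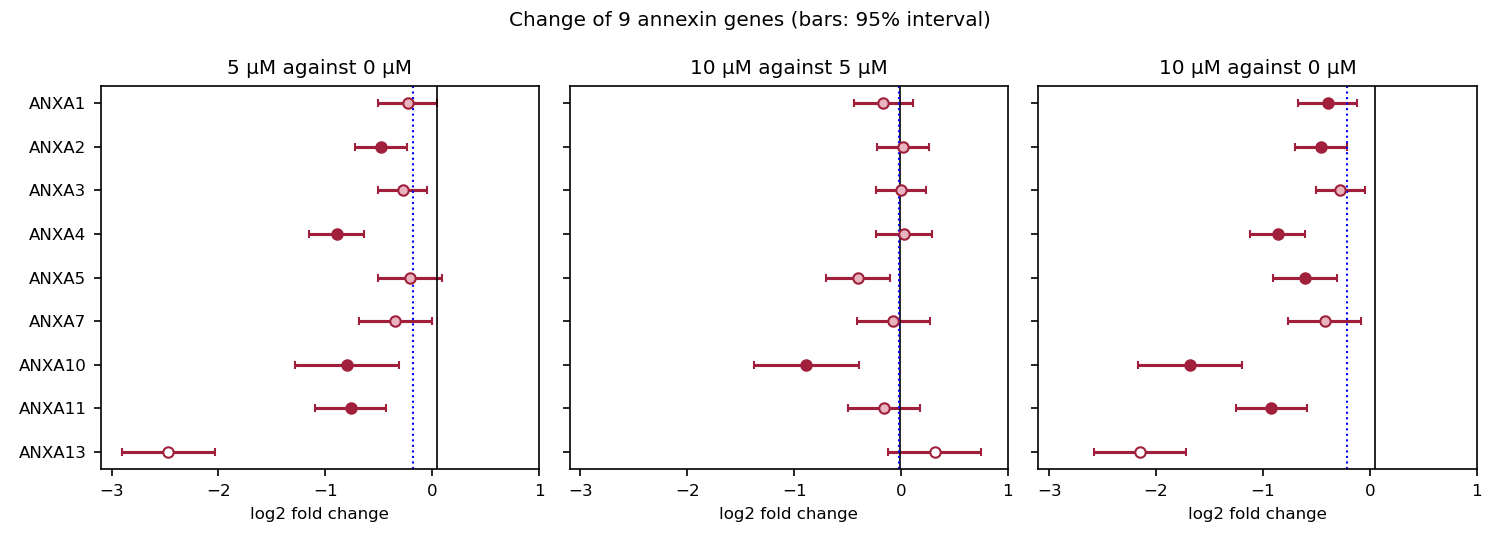
Log2 fold change (horizontal axis) of each annexin above the floor in the 3 comparisons of 5-Aza doses, with 95% intervals of the limma fit as bars, filled points for genes that passed the test, pale points for those that did not and an open point for the untested ANXA13. The solid line is the median of all tested genes and the dotted line that of the brightest 10%, and against 0 µM all 9 points lie left of both lines at each dose.

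ANXA5 and ANXA1 passed the test only at 10 µM against 0 µM. ANXA5, which binds phosphatidylserine and is used as a probe for dying cells, had signals of 12.16, 12.21 and 12.03 at 0 µM, 11.88, 11.87 and 12.03 at 5 µM, and 11.39, 11.80 and 11.38 at 10 µM. The 5 µM group overlapped with the vehicle group and the 10 µM group lay below both. ANXA5 fell by 0.61 ± 0.13 at 10 µM against 0 µM (adjusted p = 0.00930). At 5 µM against 0 µM the difference was -0.21 ± 0.13 (adjusted p = 0.257), and at 10 µM against 5 µM it was -0.40 ± 0.13 (adjusted p = 0.0706), which passed the test without 10 µM replicate 2 (adjusted p = 0.0127). ANXA1, the glucocorticoid-induced annexin that signals through the formyl peptide receptor FPR2, fell by 0.39 ± 0.12 at 10 µM against 0 µM (adjusted p = 0.0376) in its brighter probe set, 201012_at.

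The 2 probe sets of ANXA1 went opposite ways. In 201012_at the signals were 12.27, 12.43 and 12.17 at 0 µM, 11.97, 12.05 and 12.16 at 5 µM, and 11.76, 12.10 and 11.83 at 10 µM. In 233011_at they were 6.87, 6.62 and 7.04 at 0 µM, 7.38, 7.27 and 7.12 at 5 µM, and 8.13, 7.50 and 7.88 at 10 µM. At 10 µM against 0 µM the groups did not overlap in either probe set, with treated cultures lower in 201012_at and higher in 233011_at. In the fit over probe sets 233011_at rose by 0.99 ± 0.18 at 10 µM against 0 µM (adjusted p = 0.00635), while 201012_at no longer passed (-0.39 ± 0.13, adjusted p = 0.0542). With the mean of both probe sets ANXA1 was 0.30 higher at 10 µM against 0 µM (adjusted p = 0.0397), so the direction of ANXA1 depends on the probe set.

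ANXA7 and ANXA3 did not pass the test in any comparison. ANXA7, also called synexin, which binds the calcium protein sorcin, had signals of 11.40, 11.50 and 11.33 at 0 µM, 11.01, 11.05 and 11.12 at 5 µM, and 10.68, 11.31 and 10.98 at 10 µM. Its differences were -0.35 ± 0.15 at 5 µM against 0 µM (adjusted p = 0.108) and -0.42 ± 0.15 at 10 µM against 0 µM (adjusted p = 0.0604). Its other probe set, 201366_at, passed at 5 µM against 0 µM with -0.54 ± 0.15 (adjusted p = 0.0316). ANXA3 (209369_at) had signals of 12.34, 12.50 and 12.41 at 0 µM, 12.05, 12.15 and 12.22 at 5 µM, and 12, 12.22 and 12.20 at 10 µM. All 6 treated cultures were below the vehicle cultures, with differences of -0.28 ± 0.10 at 5 µM against 0 µM (adjusted p = 0.0660) and -0.27 ± 0.10 at 10 µM against 0 µM (adjusted p = 0.0675). Between 10 and 5 µM the difference was 0.00, with a 95% interval of -0.23 to 0.23.

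**Figure D3:**
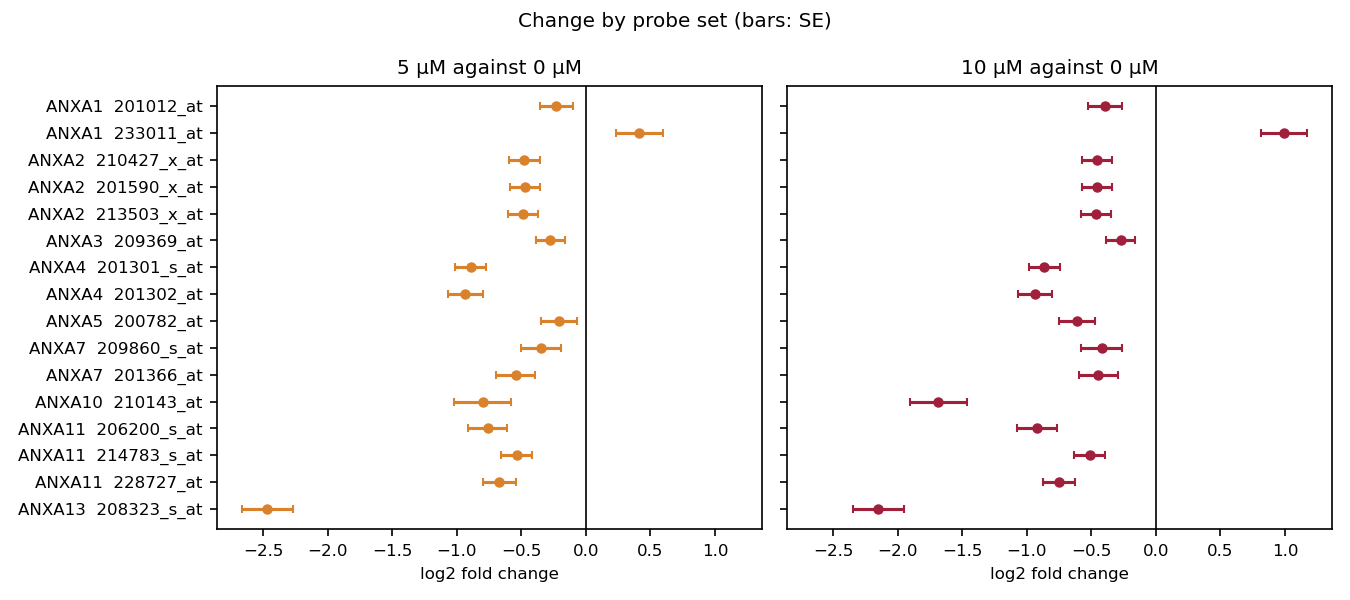
Log2 fold change against 0 µM (horizontal axis) of each annexin probe set above the floor at 5 µM and at 10 µM, 1 row per probe set with its SE as a bar. The probe sets of ANXA2 and those of ANXA4 lie close together, those of ANXA11 lie between -0.92 and -0.51 at 10 µM, and 233011_at of ANXA1 is the only one right of zero, at 0.41 at 5 µM and 0.99 at 10 µM.

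As a group, the 8 tested annexins other than ANXA13 had lower means against 0 µM in 8 of 8 at either dose. Of all tested genes 45.8% had a lower mean at 5 µM and 46.0% at 10 µM. ANXA1 is counted here by its brighter probe set, and its other probe set went the other way. At 5 µM against 0 µM 4 of them passed the test as lower and 0 as higher, where 13.3% of all tested genes passed as lower and 20.2% as higher. At 10 µM against 0 µM 6 passed as lower and 0 as higher, where 13.3% of all tested genes passed as lower and 19.8% as higher. At 10 µM against 5 µM 1 passed as lower and 0 as higher, where the shares of all tested genes were 8.92% and 6.93%. Groups did not overlap, with the treated cultures lower, in 7 of 8 at 5 µM against 0 µM (25.4% of all tested genes) in 8 of 8 at 10 µM against 0 µM (19% of all tested genes), and in 2 of 8, ANXA5 and ANXA10, at 10 µM against 5 µM (18.6%). The median log2 difference of the 8 was -0.41 at 5 µM against 0 µM, where that of all tested genes was 0.04, and -0.53 at 10 µM against 0 µM, where it was 0.05. Between 10 and 5 µM the medians were -0.12 for the annexins and -0.01 for all genes, and 5 of 8 annexins were negative, as were 51.0% of all tested genes.

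Lower signals after treatment were frequent among bright genes in general. Of the 8 annexins, 6 belong to the brightest 10% of tested genes, 1176 genes with a mean log2 signal of at least 11.2. Among those 26.3% passed as lower at 5 µM against 0 µM and 29.9% at 10 µM against 0 µM, the medians were -0.18 and -0.21, and 70.2% and 74.8% of the differences were negative. Among probe sets, 10 of the 15 tested ones without ANXA13 passed as lower at 5 µM against 0 µM (9.05% of all tested probe sets) and 0 as higher (14.5%), and 10 as lower and 1 as higher at 10 µM against 0 µM (10.4% and 16.3% of all tested probe sets). At 10 µM against 5 µM 1 of 15 passed as lower, that of ANXA10, where 5.12% of all tested probe sets did and 3.25% passed as higher. The 15 probe sets are repeated readings of the 8 genes and do not count as separate members. The 10 that passed as lower belong to ANXA2, ANXA4, ANXA7, ANXA10 and ANXA11 at 5 µM. At 10 µM against 0 µM they belong to ANXA2, ANXA4, ANXA5, ANXA10 and ANXA11. The comparisons share arrays, so their values are not independent of each other.

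The size of the changes, and not their direction against 0 µM, followed the scaling of the arrays. As deposited, all arrays had the same trimmed mean but not the same median. After quantile normalization the annexin medians were -0.19 at 5 µM against 0 µM and -0.38 at 10 µM against 0 µM. ANXA4, ANXA10 and ANXA11 still passed the test in both comparisons and ANXA5 at 10 µM against 0 µM, while ANXA1 did not (-0.20, adjusted p = 0.122). ANXA13 was at -2.34 and -2.05. With all array medians made equal, which moved the median of all tested genes to -0.22 and -0.23, the annexin medians were -0.68 and -0.81. With this actin difference of each array entered as a covariate, no annexin passed in any comparison. The differences of the 8 stayed negative against 0 µM, and ANXA10 was at -1.46 at 10 µM against 0 µM (adjusted p = 0.641). In that fit 0 genes of the whole array were called at 10 µM against 0 µM, against 891 without the covariate. Since the actin difference did not overlap between the dose groups, the fit cannot tell its part from that of dose.

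**Figure D4:**
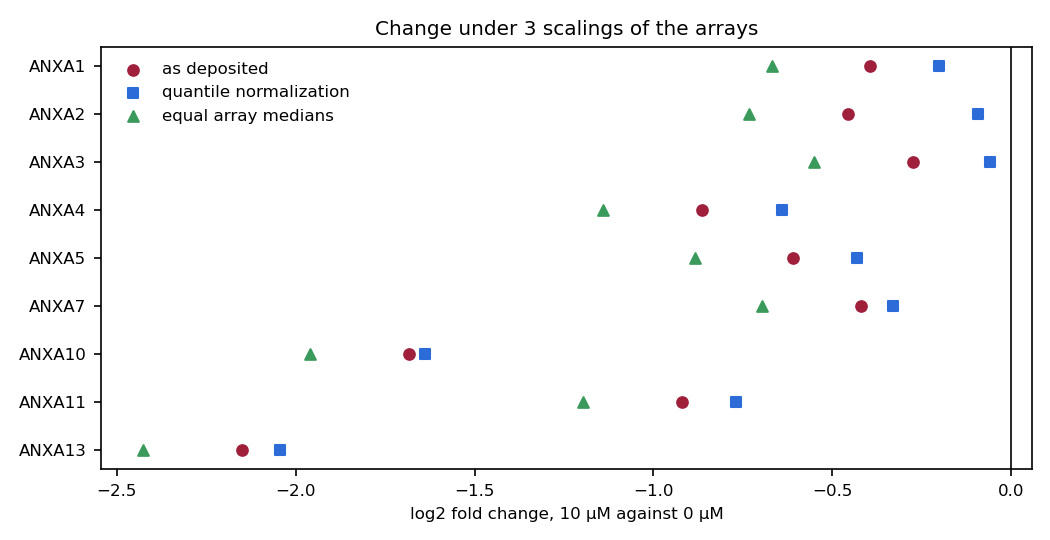
Log2 fold change at 10 µM against 0 µM (horizontal axis) of each annexin above the floor under 3 scalings of the arrays: as deposited (circles), quantile normalization (squares) and equal array medians (triangles). The order of the scalings is the same in every gene, and ANXA2 and ANXA3 come closest to zero, at -0.09 and -0.06 after quantile normalization.

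Replicates of a group moved together across the family. At 10 µM replicate 2 was the highest of its group in 8 of the 9 annexins above the floor, as it was in 69.3% of the brightest 10% and 38.8% of all tested genes. Its array median was 5.25, against 5.50 and 5.52 in the other 10 µM arrays. Replicate 3 at 5 µM was highest in 7 of 9, where it was so in 53.4% of the brightest 10% and 35.7% of all tested genes. Replicate 2 at 0 µM was highest in 7 of 9, where the shares were 49.8% and 32.9%. Over the 9 arrays the signals of any pair of these 9 annexins correlated at Pearson's r of 0.66 to 0.99, a description over points that share doses and array scaling.

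The 5 genes with signals most like that of ANXA13 over the 9 arrays, of 1669 genes whose group means span at least 1 log2 unit, were SNHG32 (r = 0.993), AKR1B10 (r = 0.992), HNF4G (r = 0.990), DLEU1 (r = 0.988) and ACSM3 (r = 0.988). AKR1B10, an aldo-keto reductase, had means of 11.48 at 0 µM, 9.36 at 5 µM and 9.68 at 10 µM. HNF4G, a nuclear receptor of intestinal epithelium, had means of 9.67, 8.38 and 8.52 at the same doses. In all 5 the mean at 10 µM lay slightly above that at 5 µM, as in ANXA13. They were chosen for this likeness, so no test applies.

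Another 5 genes named after annexins were on the array: ANXA9, the ANXA2 pseudogenes ANXA2P1, ANXA2P2 and ANXA2P3, and ANXA2R. Of these, ANXA2P2 and ANXA2P1 passed the test as lower at 5 and at 10 µM against 0 µM. In each comparison 13.3% of all tested genes did. ANXA2P2 fell by 0.82 ± 0.15 at 5 µM against 0 µM (adjusted p = 0.00388) and by 0.81 ± 0.15 at 10 µM against 0 µM (adjusted p = 0.00509), and its probe set is an _x_at set as well. ANXA2P1 fell by 0.59 ± 0.15 (adjusted p = 0.0153) and by 0.92 ± 0.15 (adjusted p = 0.00277) in the same comparisons. The third pseudogene, ANXA2P3, differed by -0.19 ± 0.16 (adjusted p = 0.419) and -0.15 ± 0.16 (adjusted p = 0.519). In the fit over probe sets ANXA9 had probe sets that disagreed at 10 µM against 0 µM, with -0.72 ± 0.19 (adjusted p = 0.0239) in 210085_s_at and -0.02 ± 0.14 (adjusted p = 0.943) in 211712_s_at. At 5 µM against 0 µM they were at -0.25 ± 0.19 (adjusted p = 0.368) and 0.23 ± 0.14 (adjusted p = 0.280), so the probe set that represents ANXA9, 211712_s_at, had a higher mean there, unlike the 8 tested annexins above. ANXA2R, named as a receptor of ANXA2, differed by -0.06 and -0.07.

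The S100 proteins, small calcium sensors of which several bind annexin N-termini, were mixed. Of 20 on the array 11 were tested: 2 rose and 3 fell at 5 µM against 0 µM, 4 fell at 10 µM against 5 µM, and 5 fell at 10 µM against 0 µM, with medians of -0.24, -0.23 and -0.26. Of all tested genes 20.2% rose and 13.3% fell in the first of these comparisons, 8.92% fell in the second and 13.3% fell in the third. The 2 that rose include S100A3, which met the floor condition only through its treated arrays. S100A10, the partner of ANXA2 and named here after its values were seen, had signals of 13.16, 13.15 and 12.94 at 0 µM, 12.33, 12.52 and 12.56 at 5 µM, and 12.23, 12.48 and 12.15 at 10 µM. All treated cultures lay below the vehicle cultures. It fell by 0.61 ± 0.12 (adjusted p = 0.00549) at 5 µM and by 0.80 ± 0.12 (adjusted p = 0.00213) at 10 µM against 0 µM, and the mean over its probe sets did not pass (-0.32 with adjusted p = 0.0883, and -0.16 with adjusted p = 0.364). S100A11, the partner of ANXA1, was lower mainly at the higher dose, with 12.19, 12.03 and 11.86 at 0 µM, 11.56, 11.68 and 11.66 at 5 µM, and 10.64, 10.59 and 10.19 at 10 µM. It fell by 1.16 ± 0.14 at 10 µM against 5 µM (adjusted p = 0.00318) and by 1.55 ± 0.14 at 10 µM against 0 µM (adjusted p = 0.000238).

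S100A2 had another course, with 9.74, 9.65 and 9.30 at 0 µM, 11.56, 11.36 and 11.92 at 5 µM, and 9.28, 9.43 and 9.21 at 10 µM. It rose by 2.05 ± 0.17 at 5 µM against 0 µM (adjusted p = 6.58e-05) and fell by 2.31 ± 0.17 at 10 µM against 5 µM (adjusted p = 0.000527). S100A3 was higher by 1.77 ± 0.38 at 5 µM against 0 µM. It met the floor condition only through its treated arrays, since 0 µM replicate 2 lay below the floor at 4.34. The filter thus favored a rise of S100A3, which counts as a description. S100A16 fell by 1.08 ± 0.12 at 10 µM against 0 µM (adjusted p = 0.000563).

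Of 18 annexin receptors and other partners on the array 13 were tested. At 5 µM against 0 µM 3 rose and 4 fell, at 10 µM against 5 µM 1 rose and 0 fell, and at 10 µM against 0 µM 2 rose and 4 fell, with medians of -0.12, 0.06 and 0.11. The shares of all tested genes that rose and fell were 20.2% and 13.3%, 6.93% and 8.92%, and 19.8% and 13.3% in the same comparisons. TRPV6, a calcium channel that the S100A10 and ANXA2 complex brings to the cell surface, rose by 1.10 ± 0.24 at 5 µM (adjusted p = 0.00912) and by 1.16 ± 0.24 at 10 µM against 0 µM (adjusted p = 0.00830). PLA2G4A, the cytosolic phospholipase that ANXA1 can inhibit, fell by 0.57 ± 0.14 at 5 µM against 0 µM (adjusted p = 0.0126) and rose by 0.93 ± 0.14 at 10 µM against 5 µM (adjusted p = 0.00558), with 0.35 ± 0.14 at 10 µM against 0 µM (adjusted p = 0.0783). Other partners are named after their values were seen. AHNAK, a scaffold of the S100A10 and ANXA2 complex, fell by 0.72 ± 0.10 at 5 µM against 0 µM (adjusted p = 0.000963), and the mean over its probe sets did not pass (-0.34, adjusted p = 0.401). SRI, the sorcin that binds ANXA7, fell by 0.78 ± 0.13 (adjusted p = 0.00234). NEDD4, a ubiquitin ligase, rose by 0.76 ± 0.08 at 5 µM against 0 µM (adjusted p = 0.000284).

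Copines, another family of calcium-dependent phospholipid-binding proteins, had 5 tested genes of 9 on the array. CPNE3 fell by 0.66 ± 0.11 (adjusted p = 0.00286) and CPNE2 rose by 0.79 ± 0.15 (adjusted p = 0.00461) at 5 µM against 0 µM, with a median of 0.08 over the 5. Of all tested genes 13.3% fell and 20.2% rose there. In the step between 5 and 10 µM 1 passed, CPNE3 at 0.42 ± 0.11 (adjusted p = 0.0392), where 6.93% of all tested genes rose. It missed the threshold in 8 of the 9 fits that left out an array. Against 0 µM CPNE1 alone passed at 10 µM, with -0.74 ± 0.18 (adjusted p = 0.0149), with a median of -0.06, where 13.3% of all tested genes fell. Of 23 enterocyte genes on the array 10 were tested. At 5 µM against 0 µM 4 rose and 1 fell with a median of 0.43 (20.2% and 13.3% of all tested genes). Between 5 and 10 µM 1 fell (CA2, -0.75 ± 0.20, adjusted p = 0.0370), where 8.92% of all tested genes did. At 10 µM against 0 µM 3 rose and 2 fell with a median of 0.01 (19.8% and 13.3% of all tested genes). Those called were CDHR2, a brush border cadherin, which rose by 1.68 ± 0.34 at 5 µM against 0 µM (adjusted p = 0.00562), CDHR5 at 10 µM against 0 µM (1.07 ± 0.24, adjusted p = 0.0113), and the brush border peptidase ANPEP in both, which lay below the floor in all 0 µM cultures. ANPEP met the floor condition only through its 5 µM arrays. MYO1A, which was higher by 0.92 ± 0.23 at 10 µM against 0 µM, met it only through its 10 µM arrays. The filter thus favored a rise in both genes, so their rises count as a description. ANPEP is among the 4 that rose at 5 µM against 0 µM. Both are among the 3 that rose at 10 µM against 0 µM, so the filter also favored these counts.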

How the data were processed

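RNA of 9 HT-29 cultures, 3 each at 0, 5 and 10 µM 5-Aza, was measured on 1 array per culture. Groups follow the dose in each sample's labels. The file deposited by the authors gives log2 signals of 54675 probe sets. The study's methods and the submitters' processing notes name RMA, and the notes affy 1.14.2, but the values have the form of MAS 5.0 signals: the 2% trimmed mean of the linear signals was 250.1 on every array, array medians ranged from 5.07 to 5.52, the lowest value was -3.32, and sorted values of different arrays differed by up to 1.58. The reason for this difference is not given in the sources used here. The number of arrays limits the precision.

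Probe sets were named with GEO's platform table and RefSeq symbols: 41089 had 1 gene, 1801 several and 11717 none, 62 were controls, and 6 with a missing value were left out. Probe sets of several genes were not used, which leaves ANXA8 unreported. Each gene was represented by its probe set of highest mean over the 9 arrays. limma 3.58.1 in R 4.3.3 (lmFit, eBayes) was fitted on all 9 arrays with 1 mean per group, over 11756 genes and separately over 27141 probe sets, with two-sided tests and Benjamini-Hochberg adjustment. The study's methods compared 5 with 0 µM and 10 with 5 µM. The comparison of 10 with 0 µM was added. Scripts were tested on simulated data. Promoter windows come from RefSeq (GRCh38.p14), and figures were drawn with Python 3.11.15 and matplotlib 3.10.9.

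The members, the gene lists and the rule for named genes were chosen with earlier results of these data known. The rule names all 10 annexins, further genes named after annexins and the 5 genes most like ANXA13. It also names up to 4 called members of each further list, or the 2 of smallest p in a list without a call. Genes outside it are marked where they appear. Alternatives covered the low-signal filter, the choice of probe set, scaling, the limma settings, a replicate block, the actin control as a covariate and leaving out each array.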

Additional observations from a re-analysis of the deposited data

How the results depend on the processing

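Over 66 tested gene and probe set differences, 1493 alternative values were computed, of which 1319 kept their direction and their side of the threshold, 120 kept the direction but no longer passed, 33 newly passed and 21 changed sign. The sign changes of ANXA1 came with the mean of its probe sets, at 0.093 for 5 µM against 0 µM, 0.21 for 10 µM against 5 µM and 0.30 for 10 µM against 0 µM. CPNE1 at 10 µM against 0 µM was 0.10 with the actin covariate. All other sign changes were at 10 µM against 5 µM, between values close to zero. With the mean of the probe sets ANXA2 was -0.16 and ANXA7 0.012. Without _x_at and _s_at probe sets ANXA4 was -0.001 and ANXA7 0.10. ANXA3 was -0.00833 with equal array medians, and ANXA4 -0.046 with array weights. With the actin covariate ANXA2 was -0.11, ANXA3 -0.15 and ANXA11 0.14. Over the fits that left out 1 array each, ANXA2 ranged from -0.049 (without 5 µM replicate 1) to 0.091 and was also below zero without 10 µM replicate 2. ANXA3 ranged from -0.043 (without 5 µM replicate 1) to 0.073 and was also below zero without 10 µM replicate 2 or 3. ANXA4 ranged from -0.080 (without 10 µM replicate 2) to 0.10 and was below zero without 5 µM replicate 1 too, and ANXA7 ranged from -0.23 to 0.081 (without 10 µM replicate 1). The causes were not tested.

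The counts of called annexins, 0 at 5 µM against 0 µM, 0 at 10 µM against 5 µM and 1 at 10 µM against 0 µM, with the same counts for probe sets, moved with several choices. Equal array medians gave 3 genes and 4 probe sets at 5 µM against 0 µM, and 3 genes and 5 probe sets at 10 µM against 0 µM. Array weights gave 2 annexin genes and 3 probe sets at 10 µM against 0 µM, and 636 called genes over the array at 10 µM against 5 µM, against 276. The methods' t-test, run on the genes and filter used here, gave 114 called genes at 10 µM against 5 µM and 437 at 10 µM against 0 µM, with 0 annexin probe sets there. Without the fold threshold 4 genes and 10 probe sets of the annexins passed at 5 µM against 0 µM, 1 and 1 at 10 µM against 5 µM, and 6 and 11 at 10 µM against 0 µM, out of 3941, 1864 and 3893 genes over the array. The actin covariate, which rises with dose, left 663, 12 and 0 called genes in the 3 comparisons, and 0 annexin genes and probe sets at 10 µM against 0 µM. Leaving out 1 array gave 0 to 1 annexin gene and 0 to 1 probe set at 10 µM against 5 µM, 1 to 2 genes and 1 to 3 probe sets at 10 µM against 0 µM, and 157 to 381 called genes over the array at 10 µM against 5 µM. The 157 came without 5 µM replicate 3. Scaling moved the share of calls that were lower: at 5 µM against 0 µM it was 13.3% as deposited, 21.3% after quantile normalization and 38.1% with equal medians, and at 10 µM against 0 µM 19.8%, 31.1% and 50.9%.

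ANXA1 at 10 µM against 0 µM lost its place past the threshold in 12 of 23 alternatives, ANXA10 at 5 µM against 0 µM in 6 and at 10 µM against 5 µM in 10, and ANXA10 at 10 µM against 0 µM in 1, the actin covariate. ANXA3 and ANXA7 at 10 µM against 0 µM newly passed in 4 and 6 of 23. Same-numbered replicates of different groups correlated at -0.09 to 0.18 in their deviations from the group means, so the numbers were not taken to pair cultures. With the replicate block 1167, 265 and 892 genes were called in the 3 comparisons, 4, 0 and 6 annexins passed as lower, and ANXA10 at 10 µM against 5 µM missed the threshold (adjusted p = 0.0526). The GAPDH control, added after the data were seen, gave the same order as actin, at 0.19 at 0 µM, 0.32 at 5 µM and 0.57 at 10 µM (exact permutation test, p = 0.00357). ANXA6 lay below the floor, was left out by the filter on low signals and is reported without a test.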
